A study of Homo sapiens with 2 samples.

Results

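The olfactory receptor genes of human chromosome 11 were examined in a map of accessible chromatin of embryonic stem cells. They were taken as the protein-coding GENCODE genes of that chromosome whose symbol is OR, a family number, subfamily letters and a member number. This gave 178 genes of 20033 protein-coding genes in all. Of these, 57 belong to families OR51, OR52 and OR56 (class I, the families shared with fish) and 121 to other families (class II). Neighbours less than 100 kb apart were chained into 15 clusters that hold 175 of the genes, and OR4A47, OR10V1 and OR2AT4 stood alone. The symbols of 10 members end in P, the mark of a pseudogene, although the annotation lists them as protein-coding.

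The map came from ATAC-seq, in which a transposase cuts and tags DNA that is free of tightly packed nucleosomes. It was made in H1, an established human embryonic stem cell line, from frozen cells that were thawed and treated with DNase I before tagging, with no other treatment or genotype. The 2 samples form 1 group and share 1 deposited peak list of 236878 summits in 160327 regions, 7888 of them on chromosome 11. The list gives no value per library, so replicate spread and depth could not be given, no test over samples was possible, and nothing in the labels ties the samples to separate cultures. All 10 embryonic stem cell markers examined, among them POU5F1, SOX2 and NANOG, had a region at a start. So had 1 of 6 erythroid markers (EPOR), 4 of 6 olfactory neuron markers, 4 of 4 neuron markers and 4 of 5 fibroblast markers. Over all protein-coding genes the share was 81.1%, so most of these counts do not tell cell types apart.

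Olfactory receptors are G protein-coupled receptors on the cilia of sensory neurons in the nose. Each such neuron expresses 1 allele of 1 receptor gene, and the remaining receptor genes are kept silent in packed heterochromatin. In the neurons, LHX2 and EBF factors bind receptor promoters and enhancers, and in cells outside the nose most of the genes are silent. The coding sequence usually lies in 1 exon, often with short noncoding exons before it, and the genes sit in tandem arrays that arose by duplication.

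Accessible DNA was rare at the members' transcript starts. A gene was counted when a summit (the highest point of a region) lay within 1 kb of any of its annotated starts. This held for 14 of 178 members (7.87%, 95% exact binomial interval 4.37% to 12.8%), against 81.1% of all protein-coding genes and 933 of the 1139 other genes of chromosome 11 (81.9%). At the canonical start alone it held for 12 members (6.74%), against 76.8% of all protein-coding genes. The 238 olfactory receptor genes of other chromosomes had a like share, 5.46% (2.94% to 9.16%), with overlapping intervals. Intervals here and below cover counting error only, and genes of 1 cluster are not independent. Where a member had a region, the authors' fold over their background had a median of 5.91 (3.09 to 18.0), below the median of 9.71 over all protein-coding genes with a region.

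The members with the highest fold at a start were OR51D1, OR52N2 and OR5A2. The 101 bp around the strongest summit of each are shown in GRCh38, on the strand of the gene, because they are the tallest regions at receptor starts, above the median of 9.71 for protein-coding genes. Capitals mark a match to the consensus of CTCF, the architectural factor that anchors chromatin loops, with up to 1 mismatch. The windows lie at chr11:4637033-4637133 (plus strand), chr11:5808552-5808652 (plus strand) and chr11:59426507-59426607 (minus strand).
OR51D1: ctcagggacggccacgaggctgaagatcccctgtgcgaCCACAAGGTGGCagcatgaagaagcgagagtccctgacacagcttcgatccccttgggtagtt
OR52N2: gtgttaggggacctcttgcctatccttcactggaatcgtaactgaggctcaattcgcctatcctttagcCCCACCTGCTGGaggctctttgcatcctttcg
OR5A2: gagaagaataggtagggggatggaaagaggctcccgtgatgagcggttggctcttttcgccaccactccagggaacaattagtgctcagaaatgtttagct

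OR51D1 had a region of fold 18.0 at chr11:4636859-4637552, in intergenic sequence. Its strongest summit lay 394 bp upstream of the start, and its second summit 135 bp upstream with a fold of 6.49. OR52N2 had a region of fold 14.0 at chr11:5808288-5809477, inside an intron of TRIM5, which encodes a factor that restricts retroviruses. The strongest summit lay 322 bp upstream, and the other 11 bp upstream with a fold of 6.23. In both genes the CTCF-like match lay in the window around the stronger summit, which was the one farther from the start. No such window around the weaker summits was searched, so the summits cannot be compared. OR5A2, a receptor known to respond to musks, had a region of 1126 bp with 3 summits and a fold of 10.7 at chr11:59426121-59427246. Its strongest summit lay 145 bp upstream of a start, and the window around it held none of the motifs searched.

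Class I genes made up most of the members with a region. Of 57 class I genes, 9 had one (15.8%, 7.48% to 27.9%), against 5 of 121 class II genes (4.13%, 1.36% to 9.38%). Class and place cannot be told apart in full, because every class I member lies in the distal short arm. There, 9 of 57 class I and 1 of 12 class II genes had a region (8.33%), while elsewhere 4 of 109 class II genes had one (3.67%). By family, the counts were 5 of 23 in OR51, 3 of 27 in OR52, 1 of 7 in OR56, 3 of 25 in OR8, 1 of 37 in OR5 and 1 of 16 in OR10. The 26 members of OR4 had none, nor had the small families OR1, OR2, OR6 and OR9.

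In the class I clusters, OR51E2 and OR51C1P share a start and so 1 region, of fold 6.92, at chr11:4697468-4697941. OR51E2 is known for its expression in prostate, and the summit lay 91 bp downstream of the start in its UTR. OR52J3 had a region of fold 6.18 whose summit, 418 bp downstream, lay in its coding sequence. OR51M1 had 2 regions, of fold 4.85 and 3.78, at 558 bp upstream of an inner start and 65 bp upstream of its outermost start. OR51Q1 (fold 5.65, 943 bp upstream), OR56B2P (fold 3.83, 509 bp upstream, in an intron of TRIM5) and OR52K2 (fold 3.09, 574 bp upstream) complete the class I genes. These 3 summits lay far enough upstream that windows of 500 bp would not have counted them.

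Among class II genes other than OR5A2, described above, OR10A2 had a region of fold 4.58 with its summit 81 bp into its UTR. The other 3 are OR8 genes of the distal long arm. OR8G2P had a region of fold 6.39 with its summit 44 bp into its coding sequence. OR8D4 had one of fold 3.41 in coding sequence, 397 bp downstream of its second start and 4376 bp from its canonical start. OR8B12 had one of fold 3.62, 7 bp from the start of a transcript with no annotated coding sequence and 1672 bp from the canonical start. OR8D4 and OR8B12 are therefore the members counted at a secondary start but not at the canonical one.

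The threshold of 1 kb was passed narrowly by OR51Q1, at 943 bp, and missed by OR52A5, at 1012 bp with a fold of 5.11. The nearest summit lay 1342 bp from OR9G1, 1507 bp from OR5A1 (the receptor for beta-ionone), 1555 bp from OR10G7 and 1565 bp from OR52E5, with folds of 3.83, 5.22, 2.88 and 3.76. In all, 10 members had their nearest summit at 1 to 2 kb. At the other extreme, the nearest summit lay 2020786 bp from OR4C46, 1941907 bp from OR4A8, 1917952 bp from OR4A5, 1281583 bp from OR4A16 and 1256810 bp from OR4A15. These 5 genes lie beside the centromere.

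Over all members the median distance from the nearest start to the nearest summit was 17425 bp, against 51.0 bp for the other genes of chromosome 11. It was 8378 bp for class I members, none of them beyond 45000 bp, and 40757 bp for class II members. A summit lay within 10 kb of 60 members and more than 100 kb away from 50 members, all class II. Of the 1139 other genes, 6 lay that far.

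**Figure D1:**
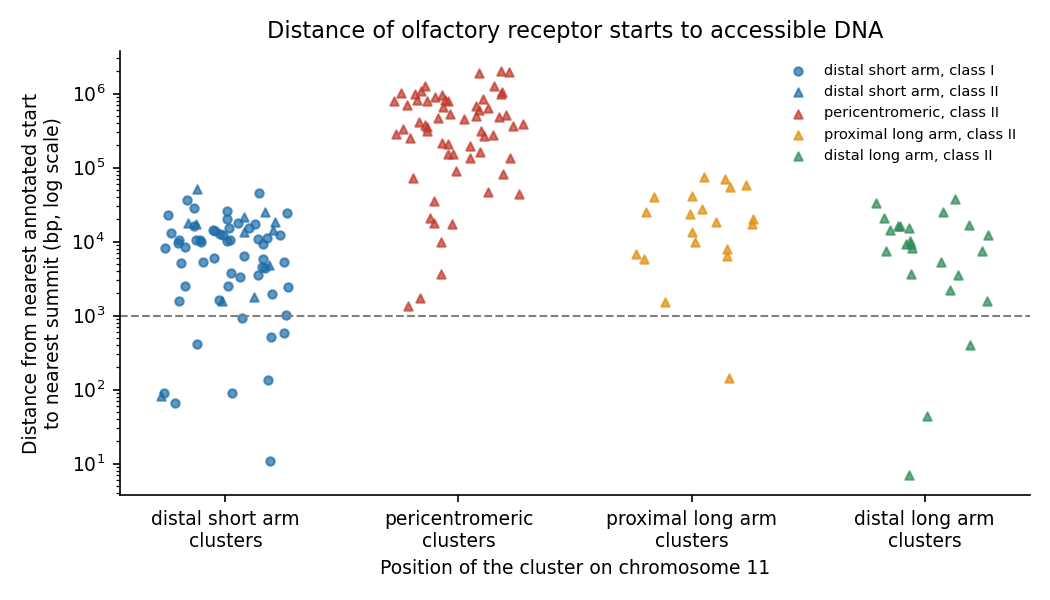
Distance in bp (log scale) from the nearest annotated start of each clustered olfactory receptor gene to the nearest accessible summit, by position of the cluster on the chromosome. Circles are class I genes, triangles class II genes, points are spread sideways for legibility, and the dashed line marks the 1 kb threshold. The 62 pericentromeric genes have a median of 381530 bp and none lies under the line, while the other groups have medians of 9512, 19364 and 9278 bp.

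Promoter sequence differed between members and other genes. The ratio of observed to expected CpG in the 500 bp to either side of the canonical start had a median of 0.153 in members and 0.707 in the other genes of chromosome 11. Of the members, 123 fell in the lowest CpG decile of all protein-coding genes, 43 in the second, 11 in the third and 1 above. Within the lowest decile, 4.07% of members had a region against 35.7% of genes that are not olfactory receptors. In the second decile the shares were 16.3% and 45.1%, and in the third 18.2% and 60.0%. Members thus had fewer regions than other genes whose canonical start had like CpG content, without a test over samples. A region at any annotated start counted here, so a gene could be counted at a start of other CpG content. Shares by decile at the canonical start alone were not computed. Unique 31-mers are strings of 31 bases that occur once in the genome and so bear on whether reads can be placed. Their share was 98.7% in the members' median start window and 99.3% in that of the other genes. In the 5 members farthest from a summit it was 56.4% (OR4C46), 59.7% (OR4A8), 59.4% (OR4A5), 95.3% (OR4A16) and 78.6% (OR4A15). The part of read placement in their distances was not tested.

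Members differ in how their starts are annotated. In 83 members every coding transcript begins at the coding start, and 3 of these had a region (3.61%, 0.752% to 10.2%), 1 of them OR8B12, at the noncoding first exon of a further transcript. Of the 95 members whose coding transcripts hold sequence before the coding start, 11 had one (11.6%, 5.92% to 19.8%), with overlapping intervals. For class I the shares were 8 of 34 with such sequence (23.5%) and 1 of 23 without (4.35%), and for class II 3 of 61 (4.92%) and 2 of 60 (3.33%). Whether true starts lie elsewhere in the 83 genes was not tested. Of the 194 olfactory receptor pseudogenes of the chromosome, 5 had a region at a start (2.58%).

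Around the canonical starts the members had far fewer regions than the other genes. In the 1 kb centred on the start there were 5.06 regions per 100 members and 71.8 per 100 other genes. The members' value counts 9 gene and region pairs over 8 distinct regions, since OR51E2 and OR51C1P share 1. In the other bins out to 10 kb the members had 1.12 to 3.37 per 100 starts. Within the clusters, sequence within 1 kb of a member's start held 35.8 regions per Mb (95% exact Poisson interval 19.6 to 60.0, 14 regions) and the remaining sequence 25.9 (21.4 to 31.1), with overlapping intervals. Over the rest of the chromosome the corresponding densities were 186 and 52.2 per Mb.

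**Figure D2:**
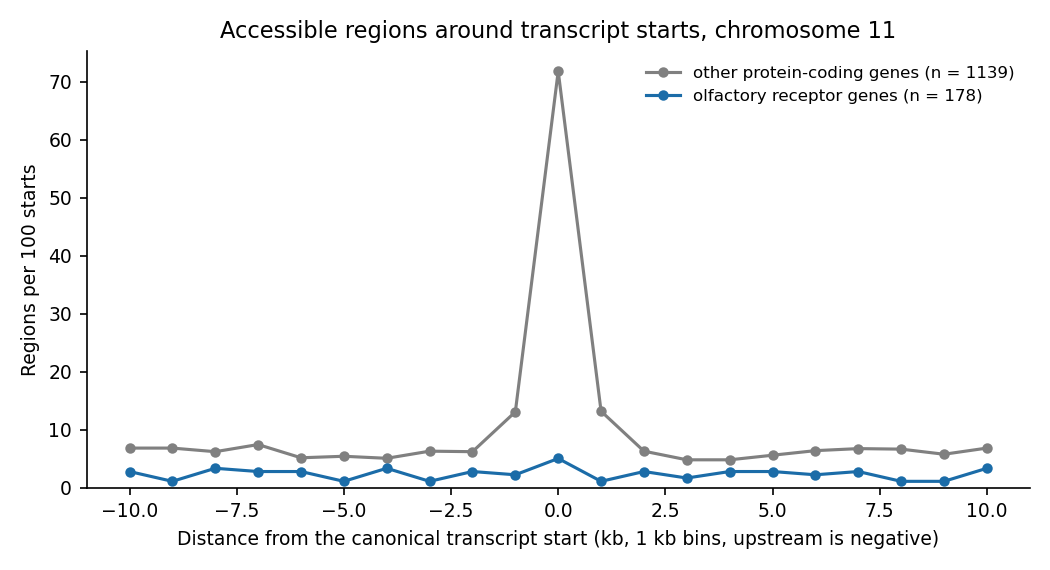
Accessible regions per 100 canonical starts (vertical axis) in 1 kb bins of distance from the start in kb (horizontal axis, upstream negative) on chromosome 11. Blue is the 178 olfactory receptor genes and grey the 1139 other protein-coding genes; at the start itself the values are 5.06 and 71.8.

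The clusters as a whole were sparse in accessible regions. Their 4.87 Mb held 130 regions, or 26.7 per Mb (22.3 to 31.7), against 59.8 per Mb (58.5 to 61.2) over the rest of chromosome 11, a ratio of 0.446. The regions that were present were of usual height and width, with a median fold of 5.35 against 5.40 and a median width of 416 bp against 458 bp. The sequence of the clusters was lower in G+C (37.7% against 41.7%) and had a near-equal share of unique 31-mers (84.6% against 83.8%).

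This average covered very different clusters. In the distal short arm (chr11:4367263-7941708), 5 clusters with 69 genes had 42.3 regions per Mb (33.6 to 52.7), 0.707 of the rest of the chromosome, and 10 genes with a region at a start (14.5%). In the distal long arm (chr11:123753580-124582942), 2 clusters with 24 genes had 43.6 per Mb (29.4 to 62.3), a ratio of 0.729, and 3 such genes. In the proximal long arm (chr11:58023881-59520703), 2 clusters with 20 genes had 23.2 per Mb (13.0 to 38.3), a ratio of 0.388, and 1 such gene. The 6 clusters around the centromere (chr11:48216810-56989843), with 62 genes, had 3.04 per Mb (0.986 to 7.09), a ratio of 0.0508. None of their genes had a region at a start (0% to 5.78%). The interval of the pericentromeric density lay below the density intervals of the other groups, whereas the intervals of the shares at starts overlapped those of the long-arm groups. Their flanks, the sequence within 1 Mb, held 23.2 regions per Mb, against 66.2, 61.4 and 92.9 per Mb in the flanks of the distal short-arm, proximal and distal long-arm clusters. The share of unique 31-mers in these flanks was 59.5%, against 81.0%, 84.2% and 88.3%, and its part in the difference was not tested.

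**Figure D3:**
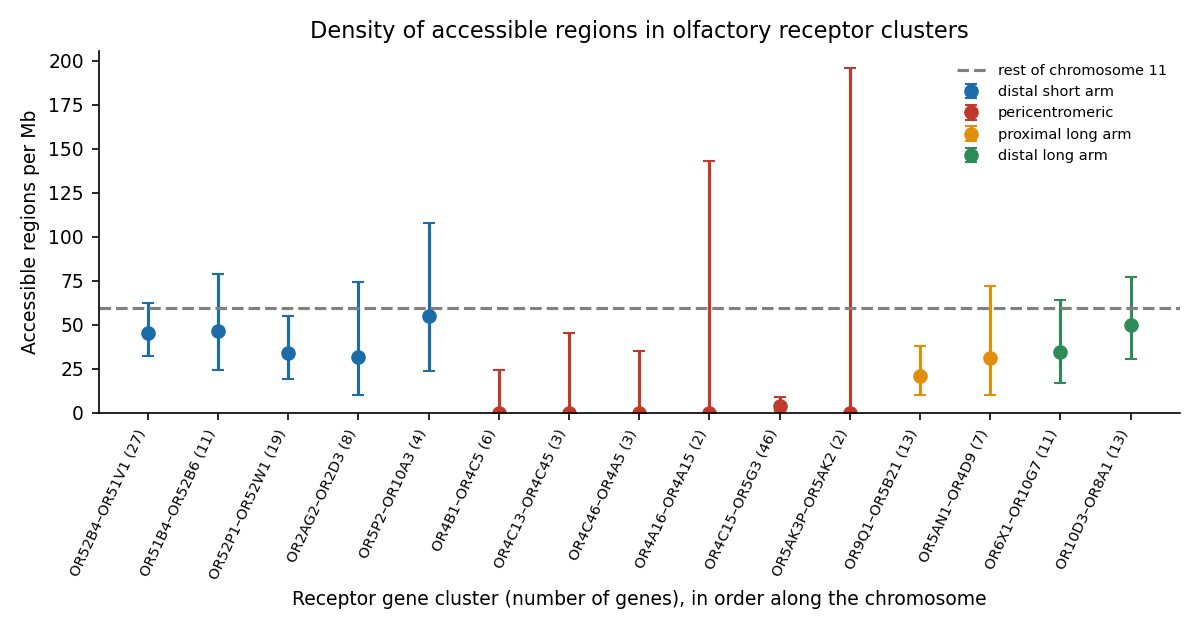
Accessible regions per Mb in each of the 15 olfactory receptor clusters of chromosome 11, in order along the chromosome, named by their first and last gene with the number of genes in parentheses. Points are densities, bars 95% exact Poisson intervals, colours the position on the chromosome, and the dashed line is the rest of the chromosome at 59.8 per Mb; the 6 pericentromeric clusters lie at 0 to 3.95 per Mb.

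Within the groups, single clusters with few regions could not be told apart from each other. The short-arm clusters ranged from 32.0 per Mb (OR2AG2 to OR2D3, 5 regions) to 54.9 per Mb (OR5P2 to OR10A3, 8 regions), with overlapping intervals. The class I cluster from OR52B4 to OR51V1, with 27 genes, held 38 regions at 45.6 per Mb (32.3 to 62.6) and 5 members with a region at a start. The neighbouring class I clusters OR51B4 to OR52B6 and OR52P1 to OR52W1 had 46.3 and 33.8 per Mb. In the long arm, the cluster from OR9Q1 to OR5B21 had 20.7 per Mb (9.90 to 38.0) and that from OR10D3 to OR8A1 50.1 per Mb (30.6 to 77.3). Clusters with no region numbered 5, all pericentromeric, and hold 16 members. Unique 31-mers made up 71.1% of OR4B1 to OR4C5, 65.8% of OR4C13 to OR4C45 and 53.7% of OR4C46 to OR4A5. In OR4A16 to OR4A15 and OR5AK3P to OR5AK2 they made up 90.7% and 87.0%, but these clusters span only 25.7 and 18.8 kb. The upper limits of these 2 densities, 143 and 196 per Mb, lie above the rest of the chromosome at 59.8. The part of read placement was not tested.

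The largest cluster, from OR4C15 to OR5G3, spans 1266 kb with 46 members and held 5 regions (3.95 per Mb, 1.28 to 9.22). All 5 lay at its end towards the long-arm tip. No summit was listed from its start to position 56624784, a stretch of 1.07 Mb with 41 members, which would hold 64.0 regions at the density of the rest of the chromosome. Of the 31-mers of that stretch, 84.9% were unique, close to the 83.8% of the rest of the chromosome, and its G+C content was 36.0%. The stretch is the long-arm end of the longest summit-free interval of chromosome 11, 6.95 Mb from 49670929 to 56624784, which contains the centromere and 49 members. Over that whole interval 35.6% of 31-mers were unique, and the part of read placement in its lack of regions was not tested. The second longest, 0.674 Mb from 48173028 to 48847365, holds 7 members, with 59.6% unique 31-mers. Summit-free stretches over 200 kb numbered 10 on the chromosome, and these 2 with members hold 56 of them.

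In the other clusters of 10 or more members the longest stretch without a summit was shorter. Lengths were taken between the strongest summits of regions or the cluster's ends, so a weaker summit of a bordering region can shorten them slightly. The length was 92.1 kb in OR52B4 to OR51V1, 48.0 kb in OR51B4 to OR52B6 and 59.8 kb in OR52P1 to OR52W1. In the long arm it was 153 kb in OR9Q1 to OR5B21, 92.2 kb in OR6X1 to OR10G7 and 55.1 kb in OR10D3 to OR8A1. The class I clusters thus had no summit-free stretch of the length seen beside the centromere.

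Windows of 100 kb were compared at like G+C content, since the 1279 windows outside the clusters had a mean of 6.01 regions but 5.03 when limited to the G+C range of the cluster windows. The 42 windows that lay in clusters over at least 80% of their length had a mean of 2.76 regions and 12 had none (28.6%). Of the 691 other windows in the same G+C range, 10.9% had none. The latter include windows of repeated sequence: of the 647 with at least 50% unique 31-mers, a limit chosen after seeing the data that all 42 cluster windows met, 5.56% had none and the mean was 5.34. With that limit, the means for the distal short-arm windows were 4.53 against 5.49, or 5.12 without the limit. For the distal long-arm windows they were 4.33 against 5.25, or 5.15 without it. For the proximal long arm they were 1.60 against 5.31, or 5.21 without it. The medians of these 3 groups were 5.00, 4.50 and 1.00, against 5.00 in each set of other windows. All 12 cluster windows without a region were pericentromeric. Of the 14 pericentromeric windows, 12 had no region (85.7%), against 6.81% of other windows in their G+C range with that limit and 7.74% without it. At matched G+C content the difference was thus smaller at the ends of the chromosome than near the centromere, with few windows in each group.

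**Figure D4:**
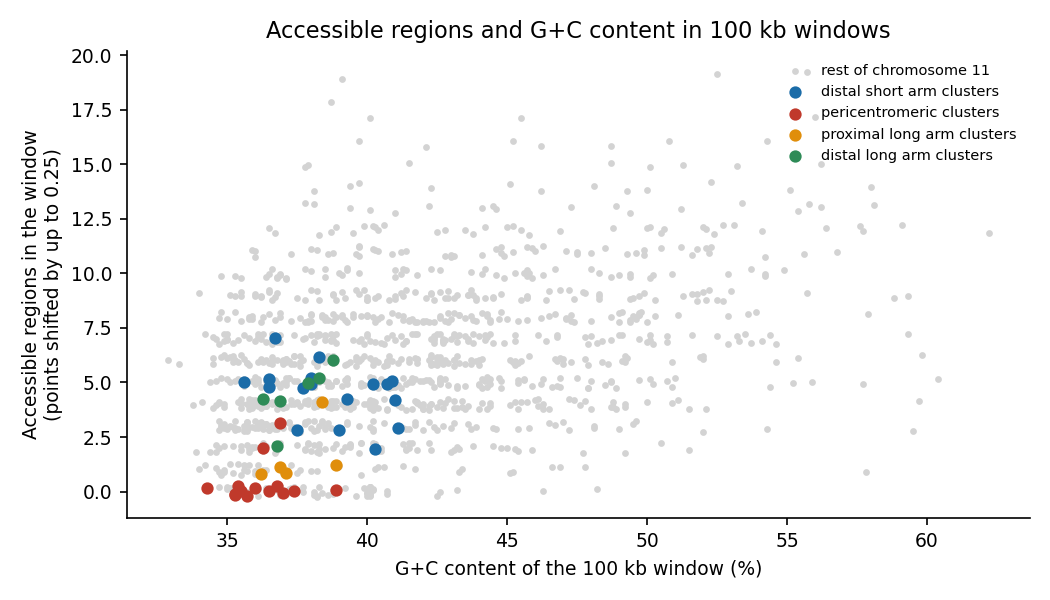
Number of accessible regions (vertical axis, points shifted by up to 0.25 to separate them) against G+C content in percent (horizontal axis) in 100 kb windows of chromosome 11. Grey points are the 1279 windows of the rest of the chromosome and coloured points the 42 cluster windows by position; 12 of the 14 pericentromeric windows lie at 0, while all 17 distal short-arm windows hold 2 to 7 regions.

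Most of the 130 cluster regions lay away from genes' starts. Of them, 14 were at a member's start (10.8%), 3 at the start of another protein-coding gene and 113 at none. By the place of the summit, 41.5% were intergenic, against 33.2% on the rest of the chromosome, and 29.2% lay in introns of protein-coding genes, against 45.3%. Coding sequence held 4, all of it members' own.

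Another 13 protein-coding genes overlap the clusters, and 6 of them had a region at a start (46.2%, 19.2% to 74.9%). Of these regions 3 lay inside a cluster, at TRIM21, TRIM68 and MMP26. TRIM21, which encodes an intracellular antibody receptor, had the highest fold of any cluster region, 19.8, and the ubiquitin ligase gene TRIM68 had 16.8. Both lie among class I genes of the cluster from OR52B4 to OR51V1. MMP26, a matrix metalloproteinase gene of the same cluster, had 11.5. ENSG00000239920 (9.88), TRIM5 (9.51) and the interferon-induced TRIM22 (7.71) reach into a cluster, but their start regions lay outside it. HBG2, HBE1, TRIM51 and TMEM225 were among those with none.

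The beta-globin locus, a set of genes for haemoglobin chains that is active in red blood cells, lies between class I clusters at chr11:5200683-5301013. Its gap of 100331 bp just exceeds the 100 kb at which the clusters on either side would have been joined. The gap held 7 regions (69.8 per Mb, 28.1 to 144), the strongest of fold 21.1, but none of HBB, HBD, HBG1, HBG2 and HBE1 had a region at a start.

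Some cluster regions were tall. A fold of at least 11.8, the 90th percentile of the rest of chromosome 11, was reached by 18 of the 130 regions (13.8%). The 10 strongest were those at TRIM21 and TRIM68, the OR51D1 region, and 7 at no protein-coding start. Of these 7, the region at chr11:6817671-6818455 (fold 18.9) lay 18163 bp from OR6A2 and that at chr11:4862492-4863455 (fold 18.6) in an intron of MMP26. Those at chr11:5123914-5124630 (fold 18.5), chr11:5380762-5381107 (fold 17.4) and chr11:5992646-5993116 (fold 16.2) had OR52A5, OR51M1 and OR52L1 as the genes with the nearest start, at 14004, 2877 and 5826 bp. The region at chr11:56659624-56660326 (fold 17.6) lay 3695 bp from OR5AR1, among the 5 regions at the end of the largest cluster, and that at chr11:124536174-124537003 (fold 16.3) lay 6885 bp from OR8B12.

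Many of the tall cluster regions of the short arm carried a CTCF-like sequence at the summit. The search for the CTCF consensus with up to 1 mismatch, and its split by fold, were chosen after seeing the data. Within 50 bp of the strongest summit, 10 of the 18 regions with a fold of at least 11.8 had a match (55.6%, 30.8% to 78.5%), and 11 of the other 112 (9.82%). The matches were centred 0.500 to 32.5 bp from the summit. The exact consensus was found in 3 of the 18 (16.7%, 3.58% to 41.4%). On the rest of the chromosome it was in 4.38% of the equally tall regions (3.05% to 6.07%), with overlapping intervals. The windows below, on the plus strand of GRCh38, show 6 of the 10, each named for the receptor gene with the nearest start. Capitals mark the CTCF-like match and, in the OR52A5 and OR52D1 windows, a further match to EBF (CCCNNGGGA) or SOX (ACAANGG), the latter inside the CTCF-like match. They lie at chr11:5124197-5124297, chr11:5380885-5380985, chr11:5992761-5992861, chr11:6812532-6812632, chr11:5476359-5476459 and chr11:4626331-4626431, in the order shown.
OR52A5: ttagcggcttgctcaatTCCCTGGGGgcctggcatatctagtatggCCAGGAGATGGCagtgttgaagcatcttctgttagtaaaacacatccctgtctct
OR51M1: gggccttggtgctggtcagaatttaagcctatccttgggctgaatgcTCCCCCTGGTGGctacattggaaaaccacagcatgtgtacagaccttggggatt
OR52L1: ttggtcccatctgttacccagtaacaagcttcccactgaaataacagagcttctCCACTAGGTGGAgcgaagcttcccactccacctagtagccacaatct
OR6A2: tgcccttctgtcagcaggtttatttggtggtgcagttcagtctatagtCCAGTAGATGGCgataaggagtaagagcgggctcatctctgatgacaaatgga
OR52D1: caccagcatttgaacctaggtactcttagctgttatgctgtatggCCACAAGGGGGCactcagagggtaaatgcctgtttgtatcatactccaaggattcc
OR51D1 distal: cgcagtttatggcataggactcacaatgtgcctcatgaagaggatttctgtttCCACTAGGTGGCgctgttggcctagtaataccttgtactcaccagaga

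All 6 windows come from short-arm clusters, 5 of them among class I genes. The full set of 10 tall regions with a match also lay in short-arm clusters. No match was found in the tall regions of the pericentromeric clusters (folds 12.2 and 17.6) or of the distal long-arm clusters (14.4 and 16.3). The proximal long-arm clusters had no tall region. These regions are too few to set their clusters apart from those of the short arm. Leaving out regions at protein-coding starts, 8 of 14 tall cluster regions had the CTCF-like match (57.1%, 28.9% to 82.3%), against 110 of 520 on the rest of chromosome 11 (21.2%, 17.7% to 24.9%). In the 27 olfactory receptor clusters of other chromosomes it was 7 of 16 (43.8%, 19.8% to 70.1%), against 2312 of 11837 such regions in the whole list (19.5%). The consensus written backwards was found in 0 of the 18. It was rare everywhere, in 2 of the 520 regions (0.385%) and 11 of the 11837 (0.0929%), so this count of 0 is not informative. Below the fold threshold the clusters of chromosome 11 had 11 of 99 (11.1%) and the rest of the chromosome 13.5%. A match describes the letters in the window and is not evidence of a bound site.

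Other motifs were searched on both strands in the same 101 bp windows and in the members' promoters. RefSeq promoters (250 bp before to 50 bp after the start, GRCh38) were matched for 133 of 178 members, 7 of them with a region. The homeodomain core TAATTA, which LHX2 can bind, was in 31 of the 133 (23.3%, 16.4% to 31.4%), against 3.28% of all protein-coding promoters and 12.2% of other promoters in the middle 80% of the members' G+C range. None of the 7 promoters with a region held it, and it was in 1 of the 130 cluster regions (0.769%), against 1.88% on the rest of the chromosome. The EBF motif CCCNNGGGA was in 4.51% of the members' promoters, against 10.0% of all and 2.17% at like G+C content, and in 2.31% of the cluster regions, against 2.55% on the rest of the chromosome. The GATA factors' motif AGATAAG was in 4 of the 130 cluster regions (3.08%, 0.845% to 7.69%), against 1.20% on the rest of the chromosome and 1.04% of all regions. AP-1 (TGANTCA), TEAD (GGAATG), POU (ATGCAAAT) and SOX were in 5.38%, 13.8%, 1.54% and 12.3% of the cluster regions, against 4.25%, 10.1%, 2.05% and 7.90% on the rest of the chromosome.

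Genes that act with the receptors in olfactory neurons mostly had a region at a start in these cells, but so did 81.1% of all protein-coding genes. The counts for transduction genes, folding and export genes, and regulators come from short lists. They do not set these genes apart from other protein-coding genes, and a difference was not tested. Of 13 transduction genes 10 had a region, with folds of 10.6 for GNAL (the olfactory G protein alpha subunit), 4.72 for ADCY3 (its adenylyl cyclase), 4.27 for GNB1, 4.43 for GNG13, 9.37 for ANO2 (a calcium-gated chloride channel), 4.59 for SLC24A4, 6.89 for STOML3, 15.4 for PDE1C and 6.44 for PDE4A. CNGA4, a channel subunit gene of chromosome 11, had 13.8 at a start other than the canonical one. OMP, the marker of mature olfactory neurons, and the channel genes CNGA2 and CNGB1 had none.

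Of the genes for receptor folding and export, RTP1 (9.49) and RIC8B (10.9) had a region and RTP2 and RTP4 had none. Of 14 regulators 13 had one. Among them were LHX2 (6.87) and its partner LDB1 (5.98), EBF1 (9.09), EBF2 (6.81), EBF3 (5.06) and EBF4 (2.99), and the histone demethylase gene KDM1A (9.55). The others were ATF5 (9.22), DDIT3 (6.95), BCL11B (2.91), EMX2 (5.16), NFIA (10.3) and NFIB (12.5), while NFIX had none. Of 10 other chemosensory receptor genes 3 had a region: TAAR5 (3.94), TAAR6 (6.59) and VN1R5 (4.79). The trace amine receptor genes TAAR1, TAAR2, TAAR8 and TAAR9 and the vomeronasal receptor genes VN1R1, VN1R2 and VN1R4 had none.

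Receptor clusters of other chromosomes with 10 or more genes varied as widely as those of chromosome 11. The clusters of chromosomes 14, 17 and 9 had no region. Those of chromosome 1 had 16.2 and 20.9 per Mb, and those of chromosomes 12, 6 and 3 had 21.5, 27.7 and 46.1 per Mb. The cluster from OR2F2 to OR2A1 on chromosome 7 had 77.4 per Mb (52.2 to 111). This value was above every large cluster of chromosome 11, but the interval overlapped that of OR10D3 to OR8A1 (30.6 to 77.3). The intervals on chromosomes 7 and 3 (28.1 to 71.1 on chromosome 3) included the rest of those chromosomes, at 59.7 and 59.8 per Mb. Unique 31-mers were computed for chromosome 11 only, so the part of read placement in the clusters without a region was not tested. A low density was thus common to most of these clusters but not to all.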

How the data were processed

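ATAC-seq was done on 2 samples of H1 cells, which share 1 peak list. The build is GRCh38, per the submitters' processing notes. Neither aligner nor peak caller, nor what was overlapped to make the list, is given in the sources used here. The deposited fold is a ratio of each summit to a background of which nothing is said. The deposited −log10 p was made by the peak caller. The deposited score repeats that −log10 p and served no other purpose. The deposited summit offset gave each position. All are the authors' values per summit and served to describe, rank and filter regions.

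Rows with the same coordinates were taken as 1 region. Any of its summits could place it at a start, and its strongest summit gave its fold and place. GENCODE release 44 gave genes and starts. Densities are regions per Mb of sequence other than N. Intervals are 95% exact Clopper-Pearson (shares) or exact Poisson (densities). Unique 31-mers were sampled every 50 bp. The share of repeat-masked sequence was not computed, because the reference carries no masking. Counting was checked on simulated data. Python 3.11.15, numpy 2.4.6, pandas 2.3.3, scipy 1.17.1, pysam 0.24.0 and matplotlib 3.10.9 were used.

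The members, lists and motifs were chosen with earlier results of these data known. Named by rule were all members with a region, the 5 nearest and 5 farthest of the others, the 10 strongest cluster regions, other genes of the clusters with a region, the globin genes, the listed olfactory genes and the longest summit-free stretch of each large cluster. The further CTCF windows and genes named as without a region were added after their values were seen. The CTCF search, the limit on unique 31-mers and the densities without the pericentromeric clusters were also added later. Some genes of the clusters are not reported here.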

Additional observations from a re-analysis of the deposited data

How the results depend on the processing

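The count of 14 members with a region at a start became 24 with windows of 2000 bp and 7 when regions under the median −log10 p of 27.7 were left out. It was 11 to 15 under the other 5 settings: windows of 500 bp, canonical or outermost starts alone, the strongest summit alone, and any base of a region. Except for canonical starts, the share over all protein-coding genes was not computed at these settings. Such counts therefore cannot be set against it. The density of 26.7 regions per Mb in the clusters became 37.0 when every summit was counted and 13.1 for regions at or above the median −log10 p. Leaving out the pericentromeric clusters, an alternative chosen after seeing the data, gave 38.8 per Mb. The ratio of 0.446 to the rest of chromosome 11 became 0.531 against windows of like G+C content and 0.648 without the pericentromeric clusters. Under the other 10 settings it lay between 0.390 and 0.500, the highest against windows of like G+C content with at least 50% unique 31-mers (chosen after seeing the data), so it was below 1 in all 12. The median fold of 5.35 was 5.02 to 5.45 in 4 alternatives. No replicate could be left out, because the list has no values per library. No paired analysis was possible because there is 1 group and no value per sample. Library depth was not analysed here, and absence from the list is not shown to be absence of accessibility.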
